A study of Rattus norvegicus with 6 samples.

Results

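The genes described here encode the kinocilium and the axoneme, the microtubule core of motile cilia. Members were chosen by name: every gene of the table whose symbol belongs to 1 of 9 families (axonemal dynein heavy and intermediate chains, dynein arm assembly factors, cilia and flagella associated proteins, radial spoke heads, nexin links, tektins, intraflagellar transport subunits and Bardet-Biedl genes), plus Dync2h1, Vwa3a, Capsl and Ccdc33. This gave 82 of the 32883 genes in the table, 78 by family symbol and 4 by name. RNA came from the vestibular epithelia of adult male Long-Evans rats, with the 2 utricles and 6 cristae of an animal pooled into a single library. Control rats (n = 3) drank plain water, and IDPN-4wk rats (n = 3) received IDPN (3,3′-iminodipropionitrile), which is toxic to vestibular hair cells (HCs), at 20 mM in their water for 4 weeks. The exposure was chosen by the study to end while the loss of vestibular function was still reversible. Each library is an animal, so the p-values below measure the spread between animals. The whole epithelium was sequenced, and from such bulk samples alone fewer HCs and less RNA per HC cannot be told apart. The study counted HCs in separate sets of rats given this exposure. Counts were lower only in the crista centre in its main set, only in the crista periphery in another, and in neither in a further set. It also measured lower signal per HC for several of the HC genes or proteins it examined. None of those was a member here, and the axonemal genes were not examined in this way.

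The kinocilium is the only true cilium on a vestibular HC and stands at the tall edge of the bundle of actin-filled stereocilia. Its axoneme is a ring of doublet microtubules around a central pair, with dynein arms that slide the doublets, radial spokes and a central apparatus that regulate the arms, nexin links that hold neighbouring doublets together, and tektins and microtubule inner proteins that stiffen the doublets. All cilia, including the non-motile primary cilia of supporting cells and other cell types, are built and kept by intraflagellar transport (IFT) trains and by the BBSome, a cargo adaptor for ciliary membrane proteins.

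Ciliary genes are widely known as targets of RFX transcription factors, which bind the X-box, and in motile cilia also of FOXJ1. For this reason the 250 bases before the start of each gene were searched on both strands in RefSeq promoters (GRCr8). The X-box was searched as its half-sites GTTGCC and GGNAAC with any 2 bases between them, and in a looser form, GTNNCC and GGNAAC with the same spacing, which includes the first. All 82 members matched a RefSeq gene and 69 had a promoter. The looser X-box was found in 5 of the 69 members (7.25%) and in 279 of all 27457 promoters (1.02%), the strict form in 1 member (1.45%) and 68 promoters (0.248%). The FOXJ1 core letters TGTTTAC were found in 2 members (2.9%), Cfap20 and Tekt3, and in 892 promoters (3.25%). The 5 members with the looser X-box were Dnah2, Dnah12, Dnaaf2, Dnaaf5 and Vwa3a. The 3 of them that passed both thresholds described below are shown as the 100 bases before the start, 5′ to 3′ along the gene, with the X-box letters in capitals, because 2 of them, Dnah2 and Vwa3a, were downregulated and Dnaaf2 was upregulated.
Dnah2, minus strand, chr10:54766027-54766126, X-box 45 to 32 bases before the start: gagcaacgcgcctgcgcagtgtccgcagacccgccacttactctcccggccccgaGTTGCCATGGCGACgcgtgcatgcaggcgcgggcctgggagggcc
Dnaaf2, minus strand, chr6:93406324-93406423, X-box 88 to 75 bases before the start: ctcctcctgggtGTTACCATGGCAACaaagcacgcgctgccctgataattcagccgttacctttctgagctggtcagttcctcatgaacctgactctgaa
Vwa3a, plus strand, chr1:184725070-184725169, X-box 60 to 47 bases before the start: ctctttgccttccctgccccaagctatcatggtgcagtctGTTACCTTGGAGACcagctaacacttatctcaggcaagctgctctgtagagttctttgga
Among the downregulated members with a promoter, 2 of 22 (9.09%) held the looser X-box, and 1 of 39 tested members that did not pass (2.56%). The strict X-box was in none of either set (0 of 22 and 0 of 39), and the FOXJ1 core was in 0 of 22 downregulated members and 2 of 39 that did not pass (5.13%). These counts are too small to set the sets apart. For Dnah2 and Vwa3a the match was on the opposite strand, so that their capitals follow the reverse complement of the searched letters. These matches are letters in a window and were not tested as binding sites.

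Genes of the axoneme were often downregulated in the IDPN-4wk rats. Levels are given in CPM, counts scaled to the size of the library after TMM normalization, which are comparable between libraries but not between genes of different length. A gene is called downregulated or upregulated when the Benjamini-Hochberg adjusted p of edgeR's quasi-likelihood test (Padj) was under 0.05 and the fold change was over 1.5, a log2-Fold change beyond 0.585 in either direction. Of the 82 members, 72 passed the filter on low counts, 71 of them with every library above its level of 0.664 CPM. The exception was Cfap58. Of these 72, 24 were downregulated (33.3%), against 6.62% of all 14352 genes tested. A single member, Dnaaf2, was upregulated, against 3.09% of all genes. The median log2-Fold change of the tested members was -0.35, and that of all genes 0.02. In all, 62 of the tested members had a negative log2-Fold change and 10 a positive one.

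By Padj alone, 31 members were lower (against 11.5% of all genes) and 2 higher (against 7.89%). The libraries of the 2 groups did not overlap in 45 members that were lower, where 19.3% of all genes had this pattern, nor in 3 members that were higher, against 18.5%. All 24 downregulated members were among those 45. Their mean levels in IDPN-4wk were between 10.4% and 66.5% of the control mean. Vwa3a, Capsl, Ccdc33 and Cfap126 are among the genes that the study itself listed, partly from these libraries, and are not independent evidence of direction. Without these 4, 21 of 68 tested members were downregulated (30.9%).

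The 24 calls were not equally secure. Of these, 17 were kept in each of the 6 fits that left out 1 library and in 5 fits with another scaling, filter or test. Ccdc33, Cfap53, Cfap69, Cfap100, Cfap161, Drc7 and Dync2h1 were lost in at least 1 of those fits. When tested directly against the fold threshold (glmTreat in edgeR), 10 of the 24 passed. The third IDPN-4wk library was the highest of its group in 19 of the 24 downregulated members. Summed over these 24 genes, the IDPN-4wk libraries held 438, 417 and 524 CPM and the control libraries 908, 976 and 927 CPM. The third IDPN-4wk library was thus nearest to the control libraries in this sum, but well below them.

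**Figure D1:**
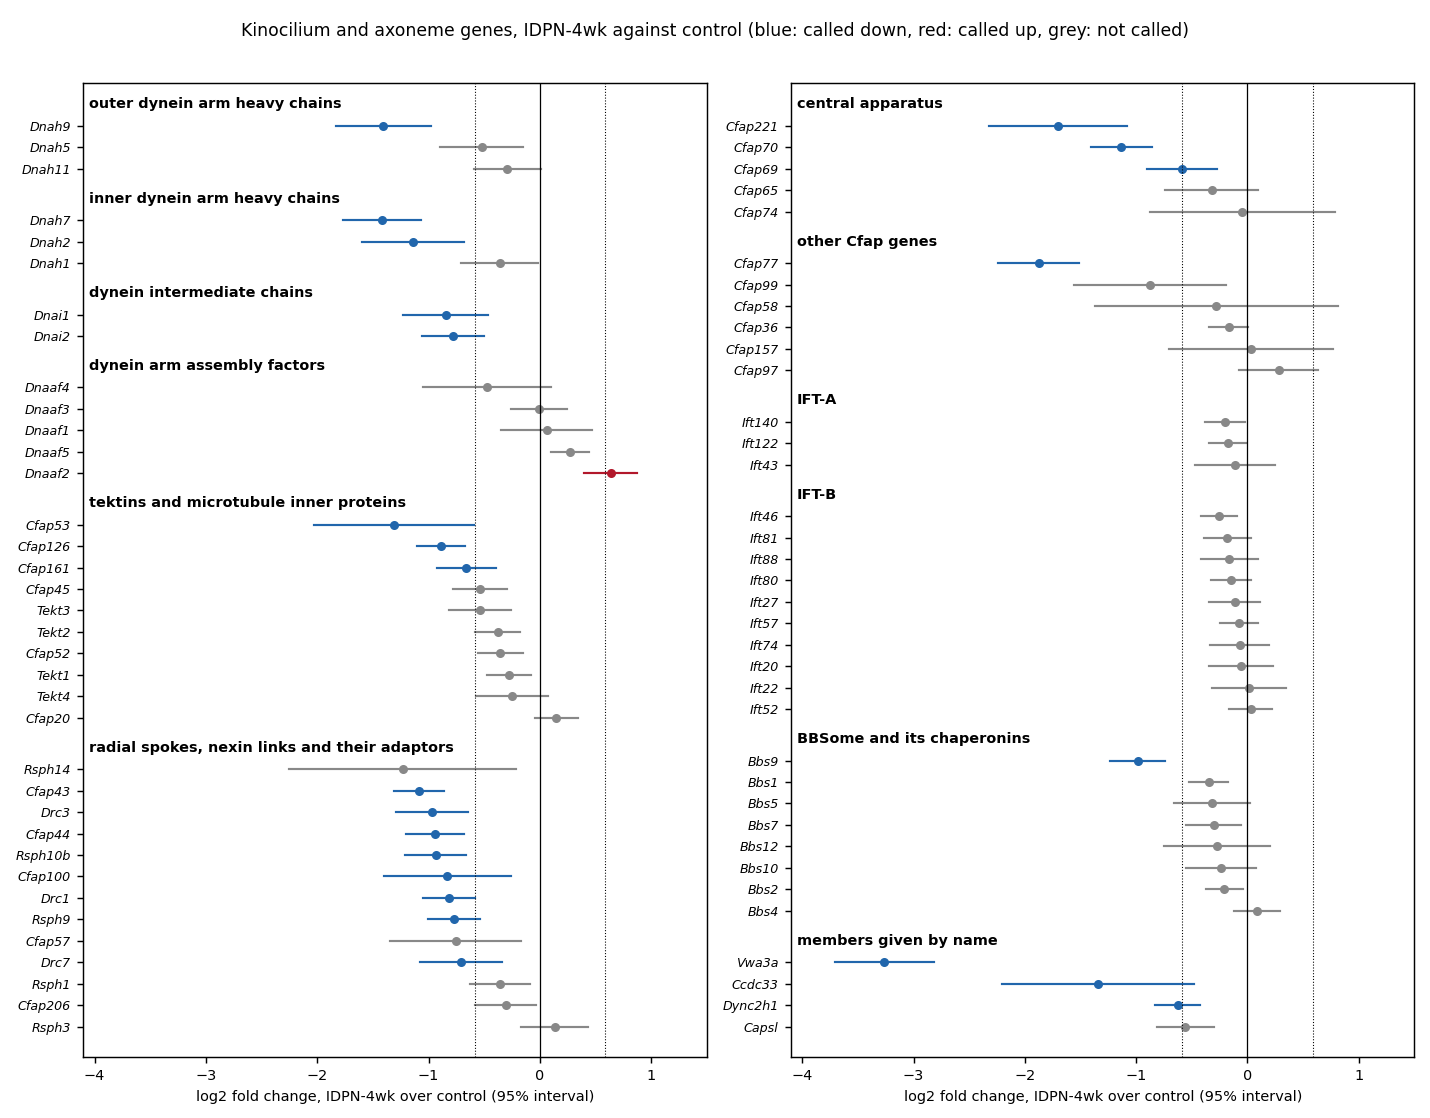
Log2-Fold change of each tested member (points) with its 95% interval (lines), IDPN-4wk over control, n = 3 animals per group, grouped by role. Dotted lines mark the fold-change threshold of 1.5. Blue members were downregulated (24), the red member Dnaaf2 was upregulated, and grey members did not pass both thresholds. The dynein, spoke and central apparatus groups extend to the left, and the IFT groups lie near 0.

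Among the dynein arm genes, calls of lower expression fell on the heavy and intermediate chains and none on the 5 assembly factors that carry the Dnaaf symbol in the table. Of the 3 tested outer arm heavy chains, Dnah9 was downregulated (ENSRNOG00000004171). Its level was 25.8, 24.0 and 35.1 CPM in the control libraries and 10.9, 8.20 and 13.004 CPM in the IDPN-4wk libraries. The groups did not overlap, and the log2-Fold change was -1.41 (SE 0.19, Padj = 6.63e-04, edgeR). Dnah5, whose product forms outer arms together with those of Dnah9 or Dnah11, had 24.1, 17.7 and 19.6 CPM in control rats and 11.2, 15.5 and 16.0 CPM in IDPN-4wk rats. It did not pass (log2-Fold change -0.52, 95% interval -0.89 to -0.15, Padj = 0.0531, edgeR), although its groups did not overlap either. Dnah11 had 80.5, 113 and 101 CPM in control against 71.7, 73.5 and 95.3 CPM, with overlapping groups and a log2-Fold change of -0.29 (95% interval -0.59 to 0.01).

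Of the 3 tested inner arm heavy chains, 2 were downregulated. Dnah7 (ENSRNOG00000060984), a single-headed inner arm motor, went from 34.0, 43.2 and 39.1 CPM to 13.4, 12.1 and 18.2 CPM. Its log2-Fold change was -1.42 (SE 0.16, Padj = 1.91e-04, edgeR), with every IDPN-4wk library below every control library. Dnah2 (ENSRNOG00000052688), an inner arm chain whose promoter is shown above, had 13.5, 12.4 and 9.98 CPM in control rats and 4.89, 6.76 and 4.57 CPM in IDPN-4wk rats (log2-Fold change -1.14, SE 0.21, Padj = 0.00363, edgeR). Dnah1, the remaining tested inner arm chain, did not pass (-0.36, Padj = 0.136, edgeR). The summed level of the inner arm heavy chains was 68.4 ± 3.01 CPM in control rats and 33.6 ± 2.97 CPM in IDPN-4wk rats (SD, n = 3), or 49.2% of control. That of the outer arm heavy chains was 147 ± 14.4 and 105 ± 16.7 CPM, or 71.6%.

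The outer arm intermediate chains, which anchor the motors on the doublet, were both downregulated. Dnai1 had 38.2, 54.4 and 44.4 CPM in control rats and 22.6, 21.1 and 32.5 CPM in IDPN-4wk rats, without overlap (log2-Fold change -0.85, SE 0.17, Padj = 0.00667, edgeR). Dnai2 had 28.2, 36.8 and 30.7 CPM against 19.7, 17.1 and 18.9 CPM (-0.78, SE 0.13, Padj = 0.00194, edgeR). The groups were separate for both genes, with the third IDPN-4wk library of Dnai1 closest to control.

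The dynein arm assembly factors act in the cytoplasm, where arms are put together before they enter the cilium. None of the 5 was downregulated (2 had an unadjusted p under 0.05, both higher, and DESeq2 also called 0 downregulated), and their summed level was 121 ± 2.62 CPM in control rats and 145 ± 5.37 CPM in IDPN-4wk rats, 119% of control. Dnaaf2 (ENSRNOG00000028155), the co-chaperone also known as kintoun, was upregulated. Its level was 24.1, 19.7 and 22.3 CPM in control rats and 34.8, 34.2 and 33.8 CPM in IDPN-4wk rats, and the IDPN-4wk libraries were all higher and close together (log2-Fold change 0.64, SE 0.11, Padj = 0.00243, edgeR). Without the second control library its log2-Fold change was 0.56 and the call was lost by the fold threshold. Dnaaf2 overlaps Klhdc1 in the RefSeq annotation, and the counts were not separated by strand. Klhdc1, looked up for this reason after its values were seen, was downregulated (-0.80, SE 0.23, Padj = 0.0349, edgeR). Dnaaf5, another assembly factor, was at 57.5 ± 2.85 and 69.4 ± 0.770 CPM and was higher by Padj alone (0.27, Padj = 0.0300, edgeR). Dnaaf5 overlaps Prkar1b in the same annotation. Dnaaf1, Dnaaf3 and Dnaaf4 did not pass, with log2-Fold changes of 0.06, -0.01 and -0.48. The sign for Dnaaf3 turned under scaling by library size alone and under upper quartile scaling. A further assembly factor that the table lists by its older symbol, Lrrc6 (now Dnaaf11), was downregulated (-1.04, SE 0.27, Padj = 0.0225, edgeR), from 6.02 ± 1.06 to 2.93 ± 0.781 CPM, and another, Pih1d3 (now Dnaaf6), did not pass (-0.45, SE 0.25, Padj = 0.241, edgeR).

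**Figure D2:**
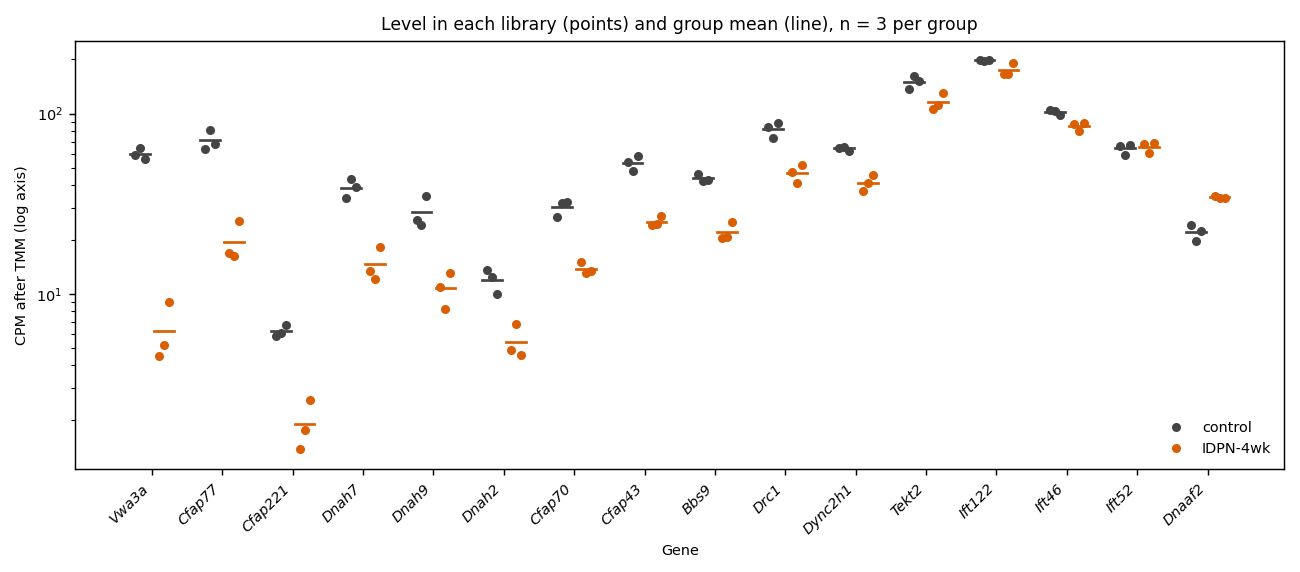
Level of 16 members in each library, in CPM on a log axis. Points are animals (dark, control; orange, IDPN-4wk) and lines are group means, n = 3 per group. Vwa3a shows the widest gap between groups of the genes drawn, Ift52 shows overlapping groups, and Dnaaf2 lies higher in IDPN-4wk.

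Of the 10 tested tektins and microtubule inner proteins, 3 were downregulated, against 6.62% of all genes. By Padj alone 7 were lower, against 11.5% of all genes. Cfap126 (ENSRNOG00000034221), one of the study's listed genes, encodes a microtubule inner protein. It had 73.4, 87.2 and 79.3 CPM in control rats and 42.3, 39.5 and 47.9 CPM in IDPN-4wk rats, without overlap (log2-Fold change -0.89, SE 0.10, Padj = 1.81e-04, edgeR). Cfap161, another inner protein, went from 49.3 ± 3.61 to 31.3 ± 5.15 CPM (-0.66, SE 0.12, Padj = 0.00385, edgeR). Cfap53 had 10.1, 11.0 and 9.41 CPM in control rats and 2.73, 2.73 and 6.89 CPM in IDPN-4wk rats. The third IDPN-4wk library stood well above the other two, and the call (-1.31, SE 0.33, Padj = 0.0177, edgeR) was lost without the first or the second IDPN-4wk library or the second control library, with Padj up to 0.0683. It overlaps Rpl37al4, a ribosomal protein-like gene, in the RefSeq annotation.

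The tektins form filaments along the doublet wall. Tekt2 had 137, 162 and 152 CPM in control rats and 106, 111 and 130 CPM in IDPN-4wk rats, separate by group but with a small fold (-0.38, SE 0.09, Padj = 0.0166, edgeR). Tekt3, Cfap45 and Cfap52 were likewise lower by Padj without reaching the fold threshold, at -0.53, -0.54 and -0.35. Tekt1 and Tekt4 did not pass (-0.27 and -0.25). Cfap20, which lies at the inner junction of the doublet and is also needed in primary cilia, had a positive estimate (0.15, 95% interval -0.04 to 0.34). The summed level of the group was 552 ± 34.1 CPM in control rats and 424 ± 25.9 CPM in IDPN-4wk rats, 76.8% of control.

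Radial spokes, nexin links and the proteins that fix inner arms beside them held the most calls. Of 13 tested members 8 were downregulated (61.5%, against 6.62% of all genes), with a median log2-Fold change of -0.82. Their summed level went from 430 ± 1.92 to 262 ± 24.3 CPM, 60.8% of control. Cfap43 and Cfap44 form a tether next to an inner dynein arm. Cfap43 (ENSRNOG00000036585) had 53.9, 48.2 and 58.0 CPM in control rats and 23.9, 24.5 and 26.9 CPM in IDPN-4wk rats (-1.09, SE 0.10, Padj = 6.90e-05, edgeR). Cfap44 had 41.1, 38.2 and 33.9 CPM against 21.5, 19.5 and 18.0 CPM (-0.94, SE 0.12, Padj = 3.56e-04, edgeR). Both genes of this tether were separate by group, with similar percentages of control, 47.0% and 52.1%.

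Drc1, a scaffold of the nexin link, had 83.9, 73.3 and 89.2 CPM in control rats and 47.2, 41.2 and 51.6 CPM in IDPN-4wk rats, without overlap (-0.82, SE 0.11, Padj = 4.36e-04, edgeR). Rsph10b, a spoke head gene, had 63.8, 62.8 and 53.5 CPM against 31.3, 26.4 and 36.6 CPM (-0.94, SE 0.12, Padj = 5.33e-04, edgeR). The remaining called genes of this group are named because they complete the count. They were the spoke head gene Rsph9 (-0.77, Padj = 7.10e-04, edgeR), the nexin link genes Drc3 (-0.97, Padj = 0.00124) and Drc7 (-0.71, Padj = 0.0143), and Cfap100 (-0.83, Padj = 0.0446). The call of Drc7 was lost without the first control or the first IDPN-4wk library (Padj up to 0.0536), and that of Cfap100 was lost without any single library (Padj up to 0.140). Drc3 overlaps Tom1l2, which was itself lower by Padj but not by fold (-0.34, SE 0.08, Padj = 0.0128, edgeR).

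Spoke genes that did not pass included Cfap206 (-0.31, Padj = 0.114), Rsph1 (-0.36, Padj = 0.0601), Cfap57 (-0.76, Padj = 0.0718) and Rsph14 (-1.23, Padj = 0.0881, edgeR). Rsph14 had 1.08, 0.928 and 3.35 CPM in IDPN-4wk, so that the third library overlapped the control range, and it passed when that library was left out. Rsph3, a spoke stalk gene, had the only positive estimate of the group (0.13, 95% interval -0.17 to 0.44).

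Of the 5 central apparatus genes, 3 were downregulated, against 6.62% of all genes. Cfap221 (ENSRNOG00000056781) had 5.81, 6.08 and 6.72 CPM in control rats and 1.37, 1.75 and 2.58 CPM in IDPN-4wk rats, all lower (-1.70, SE 0.28, Padj = 0.00208, edgeR). Cfap70 (ENSRNOG00000007046) had 26.7, 31.9 and 32.2 CPM against 15.03, 13.1 and 13.3 CPM (-1.13, SE 0.12, Padj = 1.70e-04, edgeR). Cfap69 passed narrowly (-0.59, SE 0.14, Padj = 0.0157, edgeR), and its call was lost without the second control library or without the first or second IDPN-4wk library (Padj up to 0.0629), and by fold under library size scaling (-0.48) and upper quartile scaling (-0.56). Cfap65 had 58.0, 68.9 and 56.6 CPM in control rats and 37.7, 41.1 and 68.2 CPM in IDPN-4wk rats. The third IDPN-4wk library lay within the control range while the other libraries were below it, and the gene was downregulated only without that library (-0.64, Padj = 0.00261, edgeR, against -0.32 and 0.272 with it). Cfap74, with a mean of only 1.41 CPM in control, did not pass (-0.05, 95% interval -0.88 to 0.78).

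Of the 6 tested Cfap genes that the lists used here had not assigned to a group above, 1 was downregulated. Cfap77 (ENSRNOG00000028805) is known to bind inside the doublets, and with it 4 of 11 tektins and microtubule inner proteins would be downregulated. It had 63.3, 81.6 and 68.1 CPM in control rats and 16.8, 16.1 and 25.2 CPM in IDPN-4wk rats. Its log2-Fold change of -1.87 (SE 0.16, Padj = 4.75e-05, edgeR) was the lowest among members chosen by family symbol, and every IDPN-4wk library was far below control. Cfap36, known as a partner of a small ciliary GTPase, did not pass (-0.17, 95% interval -0.34 to 0.01). Cfap99 (-0.88, Padj = 0.0709), Cfap97 (0.28, Padj = 0.254), Cfap157 and Cfap58 did not pass either (edgeR). Cfap58 and Cfap58l1 map to the same RefSeq gene, so that reads may have been split between them.

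The members given by name held the widest difference of all members. Vwa3a (ENSRNOG00000025110), which encodes a protein with von Willebrand factor A domains, had 58.6, 64.3 and 56.3 CPM in control rats and 4.53, 5.21 and 8.95 CPM in IDPN-4wk rats. The mean fell from 59.8 ± 4.10 to 6.23 ± 2.38 CPM, 10.4% of control, without overlap. The log2-Fold change was -3.26 (SE 0.20, 95% interval -3.71 to -2.82, Padj = 8.48e-06, edgeR), the 8th smallest p and the 44th lowest log2-Fold change of the 14352 genes. As one of the study's listed genes, it does not count as independent evidence.

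Dync2h1, the heavy chain of the motor that returns IFT trains to the ciliary base, was downregulated. It had 64.4, 65.4 and 62.4 CPM in control rats and 37.1, 41.4 and 45.8 CPM in IDPN-4wk rats, without overlap (-0.63, SE 0.09, Padj = 0.00101, edgeR). Its call was lost by the fold threshold under library size scaling and without the first IDPN-4wk library. Capsl, a calcyphosine-like gene, had 39.6, 41.0 and 44.2 CPM against 25.5, 26.5 and 32.8 CPM and was lower by Padj but not by fold (-0.56, SE 0.11, Padj = 0.00687, edgeR). It passed both thresholds without the first control or without the third IDPN-4wk library. The study, which used DESeq2, lists Capsl as downregulated in all its comparisons. With DESeq2 here its log2-Fold change was -0.57, which also fell short of the fold threshold. Ccdc33 had 2.97, 4.54 and 2.83 CPM in control rats and 0.863, 1.08 and 2.12 CPM in IDPN-4wk rats (-1.34, SE 0.39, Padj = 0.0357, edgeR). Its call remained in only 1 of the 6 fits without a library, that without the third IDPN-4wk library (Padj up to 0.138).

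**Figure D3:**
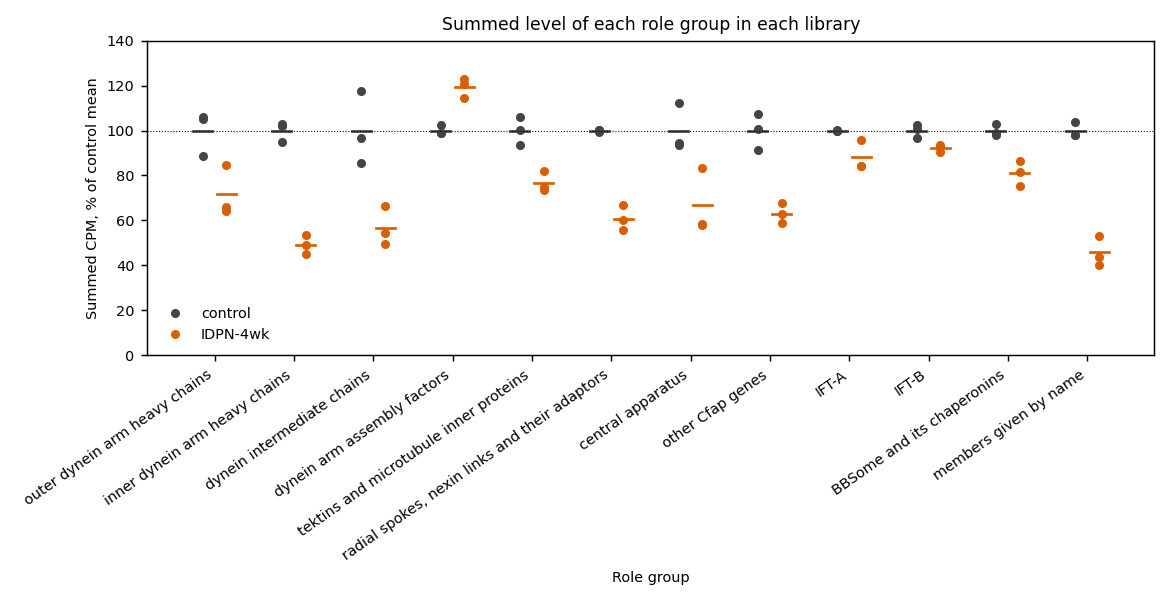
Summed CPM of each role group in each library, as a percentage of the control mean (dotted line at 100%). Points are animals (dark, control; orange, IDPN-4wk) and short lines are group means, n = 3 per group. The inner arm, spoke and intermediate chain groups lie lowest in IDPN-4wk at 49.2%, 60.8% and 56.7% together with the members given by name (45.8%), the IFT groups at 88.1% and 92.2%, and the assembly factors above 100%.

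The IFT genes had small estimated differences between groups. None of the 3 IFT-A members, whose complex carries cargo back to the ciliary base, was downregulated (2 had an unadjusted p under 0.05, and DESeq2 also called 0). Ift122 had 198, 197 and 198 CPM in control rats and 166, 166 and 192 CPM in IDPN-4wk rats. The IDPN-4wk libraries were all lower, but by a small amount (-0.18, 95% interval -0.35 to -0.01, Padj = 0.131, edgeR). Ift140 was at -0.20 and Ift43 at -0.12. The summed level of IFT-A was 313 ± 0.688 CPM in control rats and 276 ± 21.3 CPM in IDPN-4wk rats, 88.1% of control.

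None of the 10 IFT-B members, which make up the trains that move toward the tip, was downregulated (1 had an unadjusted p under 0.05, and DESeq2 also called 0). Their median log2-Fold change was -0.09, and 0.02 under scaling by library size alone, where the signs of Ift20, Ift57 and Ift74 turned. Ift46 was the exception by Padj, with 104, 104 and 98.3 CPM in control rats and 87.3, 80.3 and 89.0 CPM in IDPN-4wk rats (-0.26, SE 0.07, Padj = 0.0319, edgeR). Ift46 overlaps Arcn1 in the RefSeq annotation. Ift52 had 66.4, 59.2 and 67.2 CPM against 67.9, 60.4 and 68.6 CPM, with groups that overlapped throughout (0.03, 95% interval -0.16 to 0.22). The core train genes Ift88, Ift81 and Ift74 were at -0.16, -0.18 and -0.07. The summed level was 453 ± 12.8 CPM in control rats and 418 ± 7.59 CPM in IDPN-4wk rats, 92.2% of control.

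Of the 8 BBSome and BBSome chaperonin genes, only Bbs9 was downregulated. Bbs9 (ENSRNOG00000015189), a core subunit of the BBSome, had 46.4, 42.1 and 42.7 CPM in control rats and 20.4, 20.7 and 25.04 CPM in IDPN-4wk rats, without overlap (-0.99, SE 0.11, Padj = 1.91e-04, edgeR). Bbs1 was lower by Padj without reaching the fold threshold, with 119, 110 and 109 CPM against 86.3, 82.9 and 96.3 CPM (-0.35, SE 0.08, Padj = 0.0123, edgeR). The other subunits Bbs2, Bbs5 and Bbs7 were at -0.21, -0.32 and -0.30 and did not pass, nor did the chaperonin-like Bbs10 and Bbs12 (-0.24 and -0.27). Bbs4 had the only positive estimate (0.09, 95% interval -0.12 to 0.30). The difference between Bbs9 and the other subunits was not tested.

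Set side by side, the parts of the axoneme and the transport machinery differed in their counts. The groups were combined for this after their values were seen. Of the 36 tested members that build the doublets, dynein arms, spokes, links and central apparatus, 19 were downregulated (52.8%), their median log2-Fold change was -0.73, and 27 had libraries that did not overlap and were lower, where 19.3% of all genes did. Of the 21 tested IFT and BBSome members, 1 was downregulated (4.76%), a share near that of all genes, with a median of -0.18. Of these 21, 10 had libraries that did not overlap and were lower, a larger share than the 19.3% of all genes. Their estimates were negative in 18 and positive in 3. In 18 of the 21 the 95% interval lay wholly within the fold threshold of 1.5. The summed level of the axoneme parts was 1416 ± 73.8 CPM in control rats and 962 ± 94.4 CPM in IDPN-4wk rats, 68.0% of control. The summed level of the transport members was 1123 ± 4.44 and 983 ± 47.0 CPM, 87.5% of control. Within a library, the axoneme parts summed to 1.1996, 1.32 and 1.26 times the transport members in control and to 0.940, 0.957 and 1.04 times in IDPN-4wk. This ratio does not depend on the scaling between libraries, and its groups did not overlap. The ratio itself had no test. Dync2h1 and Cfap77 stand in other groups by the lists used here, although their products belong with the transport machinery and the doublets. With them, 2 of 22 transport members (9.09%, median -0.18) and 20 of 37 axoneme parts (54.1%, median -0.76) were downregulated, and the ratios were 1.19, 1.32 and 1.25 in control and 0.922, 0.933 and 1.02 in IDPN-4wk.

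Ciliary genes outside the members were counted in the same way. Of 40 tested axonemal genes with other symbols, 19 were downregulated (47.5%), their median was -0.61 and their summed level was 64.0% of control. Spag6l, a central apparatus gene, had 44.7, 49.6 and 46.4 CPM in control rats and 12.3, 12.1 and 18.0 CPM in IDPN-4wk rats (-1.73, SE 0.15, Padj = 4.58e-05, edgeR). Hydin, whose product is also part of the central apparatus, had 55.1, 63.0 and 50.04 CPM against 12.9, 13.7 and 22.7 CPM (-1.77, SE 0.19, Padj = 1.50e-04, edgeR). Efcab6, an EF-hand gene, went from 33.4 ± 5.12 to 14.2 ± 0.425 CPM (-1.24, SE 0.13, Padj = 1.46e-04, edgeR). In all 3 genes each IDPN-4wk library was below each control library. The table uses older symbols for 8 genes of the lists outside the members that the symbol rule would take under their newer RefSeq names, and 3 of the 8 were downregulated. They were the intermediate chain genes Wdr63 and Wdr78, now Dnai3 and Dnai4 (-1.13 and -1.19), and Lrrc6. The 5 that did not pass were Pih1d3, the IFT genes Ttc26 (now Ift56, -0.45), Ttc30b (Ift70b, -0.27) and Hspb11 (Ift25, 0.08), and Fam183b (Cfap144, -0.37).

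Of 20 tested IFT motor and further IFT or BBSome genes, 1 was downregulated (5.0%), the IFT-A gene Wdr19, which went from 40.5 ± 5.71 to 26.6 ± 2.25 CPM (-0.60, SE 0.12, Padj = 0.00643, edgeR). The call of Wdr19 was lost by the fold threshold under library size scaling (-0.50) and upper quartile scaling (-0.57) and without the first control (-0.50) or the first IDPN-4wk library (-0.54), which left 0 calls. The median of this list was -0.16. Of 27 tested genes of the transition zone, the gate at the ciliary base, and of the ciliary membrane, 1 was downregulated (3.7%). It was Cep83, a distal appendage gene, which went from 18.3 ± 2.08 to 11.7 ± 1.79 CPM (-0.66, SE 0.16, Padj = 0.0145, edgeR). The call of Cep83 was lost by fold under library size scaling (-0.55) and without the second control, the third control or the second IDPN-4wk library (Padj up to 0.0648), and the list held 0 to 2 calls when 1 library was left out, with 2 without the first IDPN-4wk library. The median of this list was -0.06, with 0.05 under scaling by library size alone and -0.13 without the third IDPN-4wk library. Of 8 tested transcription factors of ciliogenesis, none passed both thresholds in either direction (2 had an unadjusted p under 0.05, both higher). Their median was 0.18 and 6 of the 8 had positive estimates, with E2f4 higher by Padj alone (0.43, SE 0.13, Padj = 0.0367, edgeR). Rfx3, an X-box binding factor, had 12.3, 13.9 and 12.7 CPM in control rats and 11.1, 10.7 and 11.0 CPM in IDPN-4wk rats. Its groups did not overlap, but the difference did not pass (-0.25, 95% interval -0.55 to 0.06, Padj = 0.240, edgeR). Foxj1 was not analysed here.

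**Figure D4:**
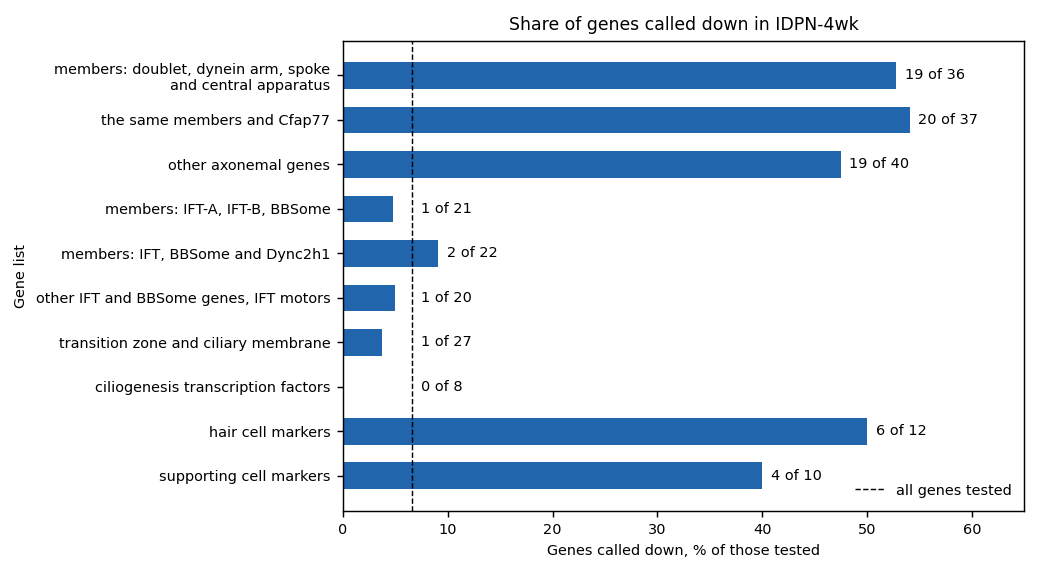
Share of tested genes that were downregulated in IDPN-4wk, in percent, for the combined member groups, the ciliary lists outside the members and the cell type markers. Bars start at 0, labels give called of tested, and the dashed line is the share among all genes tested (6.62%). The axonemal bars reach 52.8%, 54.1% and 47.5%. The transport and transition zone bars rest on 1 or 2 calls each and lie on both sides of the dashed line, at 4.76% without and 9.09% with Dync2h1.

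Some markers of HCs and supporting cells were also downregulated. Of 12 HC markers, 6 were downregulated, against 6.62% of all genes. The median log2-Fold change of the list was -0.59, and its summed level went from 2543 ± 107 to 1451 ± 192 CPM, 57.1% of control. The downregulated HC markers were Slc17a8, a vesicular glutamate transporter (-2.56), Loxhd1 (-1.80), the transduction channel gene Tmc1 (-1.41), the synaptic gene Otof (-1.19), Pvalb (-1.14) and the motor gene Myo7a (-0.64). By Padj alone 10 of the 12 were lower, among them Espn, Myo6, Lhfpl5 and the HC transcription factor Pou4f3 at -0.51 to -0.54, and the remaining Gfi1 and Cib2 were at -0.07 and 0.02. Of 10 supporting cell markers, 4 were downregulated (40.0%) and 7 were lower by Padj alone, with a median of -0.38. The 4 were Otog (-0.97), Otogl (-0.89) and Tectb (-0.88), which encode proteins of the extracellular matrices over the epithelium, and the connexin gene Gjb6 (-0.86). Sox9 and Hes1 had positive estimates (0.24 and 0.36) that did not pass. The summed level of all 10 supporting cell markers ranged from 11440 to 12388 CPM in control rats and from 6328 to 7871 CPM in IDPN-4wk rats. The part of HC number or cell composition in the axonemal result was not tested.

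Multiciliated cells, such as those that line the airway and part of the middle ear, express many of the same axonemal genes. Their marker list summed to between 40.3 and 56.2 CPM in control rats and between 42.1 and 48.8 CPM in IDPN-4wk rats. Of its 4 tested genes, none was downregulated (2 had an unadjusted p under 0.05) and Tppp3 was upregulated (0.60, SE 0.17, Padj = 0.0321, edgeR), a call that remained in only 1 of the 6 fits without a library, that without the second control library. Of the 6 listed genes that were not tested, Mcidas, Cdhr3 and Sntn were at 0 in every library, and Deup1, Ccdc78 and Gmnc were at no more than 0.515 CPM. Ccno, which was tested, had 1.06 ± 0.495 CPM in control rats and 0.705 ± 0.286 CPM in IDPN-4wk rats. The part of such cells in the result was not tested.

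The 10 members that were not tested were Dnah6, Dnah8, Dnah12, Dnah17, Tekt5, Rsph4a, Rsph6a, Cfap73, Cfap58l1 and Cfap97d1. None exceeded 19 counts in any library, and Rsph4a and Cfap97d1 were at 0 in all 6 libraries. At this depth a count of 0 allows up to 3 counts, or 0.155 to 0.216 CPM depending on the library, so Rsph4a and Cfap97d1 could be present below that level. The other 8 were detected in at least 1 library.

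Library totals lay between 13358678 and 18561991 counts. The biological coefficient of variation estimated over all genes was 0.124, and the median coefficient of variation of the tested members was 9.29% in control and 11.3% in IDPN-4wk. Over all genes, 950 were downregulated and 444 upregulated, so that 68.1% of calls were lower. Scaling by library size alone made this 780 and 762, or 50.6% lower, and moved the median of all genes from 0.02 to 0.13. Under this scaling 20 of the 24 members were still downregulated, and Cfap100, Cfap161, Cfap69 and Dync2h1 were not. The labels put all 6 libraries in the same batch. The animal codes in the sample titles differ in their leading part between the groups. All IDPN-4wk animals share the same leading part, while the controls do not all share theirs. What that part stands for is not given in the sources used here, and it cannot be told apart from the treatment.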

How the data were processed

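Total RNA from the pooled vestibular epithelia of each rat was sequenced by the study as a non-strand-specific library. The authors aligned reads to the rat genome Rnor6.0 with STAR 2.5.3a and quantified genes with RSEM 1.3.0 (versions per the submitters' processing notes). The deposited values are expected counts (estimated counts per gene), all whole as deposited, and were used without rounding. Every column belonged to a sample.

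Groups came from the sample labels, as 3 control and 3 IDPN-4wk rats. Genes were filtered with edgeR's filterByExpr (minimum count 10, minimum total 15), which left 14352 of 32883 genes and at least 99.92% of each library. Counts were scaled by TMM and tested with edgeR 4.0.16 (quasi-likelihood test, limma 3.58.1, R 4.3.3), IDPN-4wk against control, with Benjamini-Hochberg adjustment over all genes tested. Thresholds were Padj under 0.05 and a fold change over 1.5, those of the study, which used DESeq2. The study reported more downregulated and more upregulated genes for this comparison than were called here, and the cause was not tested. Intervals are at 95%. The script was checked on simulated data. Reads carried no molecular identifiers, so the limit of 3 counts at a count of 0 covers counting error only.

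The members, lists and role groups were chosen with earlier results of these data known. Genes named are, in each role group, up to 4 called members with the smallest p and the uncalled member with the highest mean CPM, every upregulated member, Dync2h1, Vwa3a, Capsl, Ccdc33, Cfap126, Rfx3 and up to 3 called genes of each outside list. All other names were chosen after their values were seen. Alternatives were other size factors (those of DESeq2, upper quartile, library size), no filter, DESeq2 1.42.0, Padj alone, glmTreat (a test against the fold threshold) and leaving out each library. Gene lengths were not used, so levels are not compared between genes. Promoters came from RefSeq (GRCr8), another build than that of the counts, and gene overlaps were read from the same annotation. Markers of other cell types were also counted. Over all genes, 6.62% were downregulated, 3.09% were upregulated and 11.5% were lower by Padj alone. Of 6 Schwann cell markers 1 was downregulated and 4 were lower by Padj alone (median -0.55), with 0 to 4 calls when 1 library was left out (0 without the first or last control or the second IDPN-4wk library, 4 without the last IDPN-4wk library). The Schwann cell list also held 0 calls with library size alone and with upper quartile scaling. Of 6 neuronal markers 2 were downregulated and Nefh was upregulated (median -0.48). Of 6 macrophage markers 0 were downregulated and C1qb was upregulated (median 0.11, with 2 at an unadjusted p under 0.05). The macrophage median was -0.17 without the first IDPN-4wk library and 0.35 without the second. Of 6 stromal markers 1 was downregulated and Col1a1 was upregulated (median -0.03). The stromal median was 0.07 without the last IDPN-4wk library and 0.08 under scaling by library size alone. Nefh was not called without the second or last control or the second IDPN-4wk library, nor was C1qb without the last control or the first IDPN-4wk library. All 5 melanocyte and dark cell markers had negative estimates (median -0.66) and 2, Kcnq1 and Atp1b2, were downregulated, with 1 to 3 calls when 1 library was left out (1 without the second control, the first IDPN-4wk or the last IDPN-4wk library, 3 without the second IDPN-4wk library). Of the 5 skeletal muscle markers in the table only Myh4 was tested, and it was upregulated (2.87), while Ckm was at 0 in every library. The part of these cell types in the axonemal result was not tested.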

Additional observations from a re-analysis of the deposited data

How the results depend on the processing

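No paired analysis was made, because the groups held different animals and the labels give no pairing between them. The 24 downregulated members were the same 24 with DESeq2 size factors, without the filter and with DESeq2's own test, and numbered 23 with upper quartile scaling (without Cfap69), 20 with library size alone and 31 by Padj alone. Leaving out 1 library gave 18 (without the first IDPN-4wk library) to 28 (without the third), and the upregulated member was lost without the second control library (0 to 1 over these fits). The median over the 72 tested members together was negative under each scaling and each left-out library (-0.42 to -0.24), while those of the IFT-B genes (0.02 with library size alone) and of the assembly factors (-0.00 without the third IDPN-4wk library) changed sign. The test against the fold threshold, glmTreat, called 453 genes in place of 1394, with 10 members downregulated and 0 upregulated. It called 1 inner arm heavy chain, 0 intermediate chains, 1 tektin or inner protein, 2 spoke or link genes and 1 member given by name. By Padj alone 2778 genes passed, with 2 members higher, 7 tektins or inner proteins, 1 IFT-B gene and 2 BBSome genes lower. Without 1 library, 1 to 2 outer arm heavy chains were called (2 without the third IDPN-4wk library), 1 to 4 tektins or inner proteins (1 without the second IDPN-4wk library) and 1 to 4 members given by name (1 without the first IDPN-4wk library). The cause of these shifts was not tested. Over the 38 genes that the naming rule above selects, 447 values kept their direction and side of the threshold, 39 lost the call and 8 gained it, and none reversed. Of the members outside these 38, Cfap74, Dnaaf3, Ift20, Ift57 and Ift74 changed sign with library size alone. Dnaaf3 did so with upper quartile scaling too. Standard errors were wider for some genes with low counts, with a value of 0.28 for Cfap221 and 0.46 for Rsph14 against 0.07 for Ift46 (log2 scale).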
